A study of Mus musculus with 39 samples.

Results

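The myogenic transcription factors are the DNA-binding proteins and cofactors that commit cells to skeletal muscle and drive their differentiation into fibres. The 9 genes described here, Pax3, Pax7, Myf5, Myod1, Myog, Myf6, Six4, Mef2c and Vgll2, were taken by symbol from the 21561 Ensembl genes present in both deposited count tables, and all 9 were found. RNA-seq was performed on gubernaculum and testis of male C57BL/6J mice, with 39 libraries in 13 groups of 3 biological replicates. The 5 gubernaculum groups (15 libraries) were wild type (WT) at postnatal day 8 (P8) and day 23 (P23), homozygous INSL3-KI at both ages, and INSL3-KO at P8. In INSL3-KI the minke whale (Balaenoptera acutorostrata) INSL3 coding sequence replaces the mouse gene at its own locus under the native regulatory sequence, and the selection cassette had been removed with Cre. The INSL3-KO line is labelled as a knockout of the gene. None of the animals received a drug or an operation. P23 INSL3-KO gubernaculum was not analysed here. The 8 testis groups (24 libraries) were WT and INSL3-KI at P8, P23 and P40, and INSL3-KO at P8 and P23.

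The gubernaculum is the cord that tethers the fetal and neonatal testis to the inguinal region, and the cremaster, a striated muscle, forms in it. In skeletal myogenesis Pax3 and Pax7 mark precursors and satellite cells, Myf5 and Myod1 determine the myoblast fate, and Myog and Myf6 act during terminal differentiation and in fibres. Six4 acts upstream of these genes, Mef2c works with the myogenic bHLH proteins on muscle promoters, and Vgll2 is a cofactor of the TEAD factors. In a bulk sample fewer cells of a type and less RNA per cell cannot be told apart.

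Depth was between 29861447 and 45260372 counts per library. The INSL3-KO and P23 WT testis libraries (12) were deposited in a table apart from the other 27 libraries. Therefore, for P8 INSL3-KO against WT, P8 INSL3-KI against INSL3-KO and P23 INSL3-KI against WT testis the table and the genotype cannot be told apart. Counts of the mouse Insl3 row in testis were 2722 to 3524 in P8 WT, 15 to 33 in P8 INSL3-KI, 20844 to 25238 in P23 WT, 52 to 84 in P23 INSL3-KI and 0 to 5 in P23 INSL3-KO, but 613 to 906 in the libraries labelled P8 INSL3-KO. At P40 they were 20183 to 29799 in WT and 443 to 511 in INSL3-KI. In gubernaculum Insl3 gave 25 to 87 counts in P8 WT and 0 in all libraries of both P8 mutants, but at P23 it gave 9 to 27 counts in WT and 0 to 28 in INSL3-KI, so that the row does not tell the P23 gubernaculum labels apart. Of the 8 gubernaculum markers fixed for the tissue check, Hoxd13 was undetected in P8 WT, the others were detected, and the summed level of the list was 337 to 419 CPM (counts scaled to a common library total) in P8 WT and 859 to 956 CPM in P8 INSL3-KI. The INSL3 receptor Rxfp2 was at 45.7 CPM in P8 WT and 1.76 CPM in P8 INSL3-KI gubernaculum. P23 INSL3-KI gubernaculum replicate 2 stood apart from the other replicates of its group, with a summed smooth muscle level of 1924 CPM against 13903 and 12421 CPM and a summed duct epithelium level of 9.46 CPM against 1627 and 2284 CPM, so the results of the P23 INSL3-KI tests are also given without it.

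The promoters show what sequence lies before the start sites of some of the factors. RefSeq promoter windows on GRCm38.p6 were matched for 6 of the 9 genes, and the 250 bases before the start were searched on both strands. The motifs were the E-box bound by the myogenic bHLH proteins (CANNTG) and the MEF3 element bound by Six4 and its relatives (TCAGGTT). The others were the M-CAT element bound by TEAD factors (CATTCC) and the MEF2 element (YTAWWWWTAR, with Y for C or T, W for A or T and R for A or G). Of 32841 promoter windows of the same length, 66.2% held an E-box, 3.49% a MEF3 element, 12.6% an M-CAT element and 2.92% a MEF2 element. The 4 windows here are printed 5′ to 3′ on the gene's strand because Myog and Vgll2 were among the strongest differences below, Myf5 was the determination factor that differed least in INSL3-KO, and Mef2c differed widely between the INSL3-KO libraries. Capitals mark the matches, none of which overlapped another.
Myog, chr1:134289754-134290003, plus strand: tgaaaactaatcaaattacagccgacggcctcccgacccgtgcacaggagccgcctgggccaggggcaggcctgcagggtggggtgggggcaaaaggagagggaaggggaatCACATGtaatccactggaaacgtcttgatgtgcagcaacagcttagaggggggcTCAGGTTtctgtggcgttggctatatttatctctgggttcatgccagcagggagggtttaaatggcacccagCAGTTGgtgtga
Vgll2, chr10:52022252-52022501, plus strand: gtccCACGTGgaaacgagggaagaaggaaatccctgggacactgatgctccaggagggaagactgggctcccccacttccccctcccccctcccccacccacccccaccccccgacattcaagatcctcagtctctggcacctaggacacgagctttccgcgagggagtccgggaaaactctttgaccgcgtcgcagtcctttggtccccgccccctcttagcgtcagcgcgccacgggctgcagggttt
Myf5, chr10:107486135-107486384, minus strand: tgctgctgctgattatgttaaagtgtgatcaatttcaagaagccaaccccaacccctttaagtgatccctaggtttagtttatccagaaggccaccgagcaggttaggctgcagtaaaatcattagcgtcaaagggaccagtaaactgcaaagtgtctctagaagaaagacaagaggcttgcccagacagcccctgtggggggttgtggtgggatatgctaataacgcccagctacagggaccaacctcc
Mef2c, chr13:83503784-83504033, plus strand: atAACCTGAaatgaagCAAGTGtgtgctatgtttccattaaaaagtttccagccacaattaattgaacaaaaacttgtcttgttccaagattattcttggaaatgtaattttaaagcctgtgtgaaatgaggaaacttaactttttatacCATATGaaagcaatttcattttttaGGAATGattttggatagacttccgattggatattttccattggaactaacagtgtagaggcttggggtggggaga
The Myog window held 2 E-boxes (CACATG and CAGTTG) and 1 MEF3 element. It held no exact match to the MEF2 pattern, but its stretch ctatatttat differs from that pattern only in the last letter. The Vgll2 window held 1 E-box (CACGTG), and the Myf5 window held no match to any of the 4 motifs. The Mef2c window, the first of 3 annotated for this gene, held 2 E-boxes (CAAGTG and CATATG), 1 MEF3 element and 1 M-CAT element, the MEF3 and M-CAT matches on the opposite strand. Of the windows searched but not printed, Pax7 held no match. The Six4 window from 73113246 held 1 MEF3 element, on the opposite strand, and its other window none. The Mef2c window from 83573357 held 1 E-box, and the remaining Mef2c window held no match. Myod1, Myf6 and Pax3 had no matched window and are named only.

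On GRCm38, Pax3 lies on chromosome 1 (78101267 to 78197134, minus strand), Pax7 on chromosome 4 (139737062 to 139833528, minus), Myod1 on chromosome 7 (46376474 to 46379099, plus) and Six4 on chromosome 12 (73099609 to 73113456, minus). Myog lies on chromosome 1 (134289989 to 134292548, plus), Vgll2 on chromosome 10 (52022502 to 52028471, plus) and Mef2c on chromosome 13 (83504034 to 83667080, plus), with 31 annotated transcripts for Mef2c. Myf6 (chromosome 10, 107492853 to 107494737, minus) and Myf5 (chromosome 10, 107482908 to 107486134, minus) are neighbours, 6718 bases apart. No other gene of the GENCODE annotation searched here overlaps any of the 9. The annotation behind the deposited counts is not given, so sharing of counts with an overlapping entry there was not checked.

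Per unit length, the deposited FPKM ranked the factors in P8 WT gubernaculum as Myog (225 ± 29.8 FPKM, SD, n = 3), Mef2c (108 ± 3.27), Myf6 (95.6 ± 29.8), Vgll2 (63.2 ± 12.7), Myod1 (48.6 ± 5.13), Myf5 (16.6 ± 5.05), Pax7 (7.38 ± 0.709) and Six4 (2.78 ± 0.358), with Pax3 at 0.0791 FPKM. Terminal factors therefore stood above determination factors, and those above the precursor factors. In P23 WT the order began with Myf6 (116 FPKM) and Mef2c (86.6 FPKM), and Myog stood at 54.2 FPKM. Levels below are CPM scaled by TMM over the 15 gubernaculum libraries, so they compare groups for the same gene and not genes with each other.

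Pax3, the precursor factor of limb and trunk muscle, was near the limit of detection. Its raw counts were 0, 11 and 21 in P8 WT, 15, 2 and 3 in P23 WT, 4, 0 and 0 in P8 INSL3-KO, 3, 0 and 0 in P8 INSL3-KI and 0 in all 3 P23 INSL3-KI libraries. The groups overlapped, and Pax3 was tested only between the WT ages (log2 fold change -0.45, edgeR adjusted p = 0.81).

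Pax7, the satellite cell factor, was detected in every WT library and in no INSL3-KI library. It measured 43.9, 50.3 and 50.2 CPM in P8 WT, 5.89, 6.44 and 6.35 CPM in P8 INSL3-KO, and 16.9, 18 and 19.2 CPM in P23 WT. All 6 INSL3-KI libraries, at P8 and at P23, had 0 counts. The 3 groups with counts did not overlap. Against a floor of 3 counts per library, Pax7 was at least 566-fold lower in P8 INSL3-KI than in WT, and at least 223-fold lower at P23 (edgeR quasi-likelihood adjusted p = 0.0022 at P23).

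Myf5 and Myod1, the determination factors, were close to 0 in INSL3-KI and parted from each other in INSL3-KO. Myf5 measured 54.1, 34.5 and 32.1 CPM in P8 WT, 20.4, 19.2 and 24 CPM in P8 INSL3-KO, and 13.7, 13.6 and 11.4 CPM in P23 WT. Its raw counts in INSL3-KI were 6, 0 and 4 at P8 and 0, 8 and 0 at P23, the 8 counts lying in the replicate that stood apart. The WT and mutant ranges did not touch, but the INSL3-KO mean of 21.2 CPM (SD 2.5) lay 1.9-fold below the WT mean of 40.2 CPM (SD 12.1), the smallest difference among the 8 factors tested.

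Myod1 measured 116, 94 and 106 CPM in P8 WT and 118, 97.8 and 100.3 CPM in P23 WT, so the WT ages overlapped. In P8 INSL3-KO it measured 23.3, 22.4 and 21.3 CPM, below every WT library. In INSL3-KI the raw counts were 4, 0 and 0 at P8 and 0 in all 3 libraries at P23.

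Myog, which is required for myoblasts to differentiate, was the most abundant of the 9 per unit length in P8 WT. It measured 448, 348 and 381 CPM in P8 WT, 54.1, 47.9 and 48.7 CPM in P8 INSL3-KO, and 82.4, 126 and 92.1 CPM in P23 WT. INSL3-KI had 4, 0 and 3 raw counts at P8 and none at P23. No group with counts overlapped another.

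Myf6, also called MRF4, measured 191, 113 and 119 CPM in P8 WT and 253, 173 and 134 CPM in P23 WT, with overlap between the ages. P8 INSL3-KO stood at 53.9, 54.3 and 59.1 CPM, below both. All 6 INSL3-KI libraries had 0 counts.

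Of the partners, Vgll2 measured 127, 88.4 and 112 CPM in P8 WT, 140, 68 and 57.2 CPM in P23 WT, and 8.22, 8.81 and 7.01 CPM in P8 INSL3-KO. It also had 0 counts in all 6 INSL3-KI libraries. The WT ages overlapped, and the INSL3-KO libraries were far below both.

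Six4 and Mef2c were the members with signal in every library. Six4 measured 18.7, 19.8 and 24.1 CPM in P8 WT, 10.6, 10.3 and 9.75 CPM in P8 INSL3-KO and 6.84, 5.41 and 4.37 CPM in P8 INSL3-KI. At P23 it measured 56.4, 37.4 and 37.9 CPM in WT and 2.98, 0.863 and 3.12 CPM in INSL3-KI. No 2 neighbouring groups of this order overlapped, and the lowest library was the P23 INSL3-KI replicate that stood apart.

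Mef2c measured 676, 716 and 726 CPM in P8 WT and 859, 505 and 620.0 CPM in P23 WT, with overlap. INSL3-KI measured 56.4, 41.3 and 48.8 CPM at P8 and 24.1, 27.1 and 23.5 CPM at P23. The P8 INSL3-KO libraries were at 160, 18.8 and 173 CPM, so that replicate 2 was below all 3 P8 INSL3-KI libraries while the other replicates were above them. The other 7 factors tested showed no such split between these 3 INSL3-KO libraries.

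**Figure D1:**
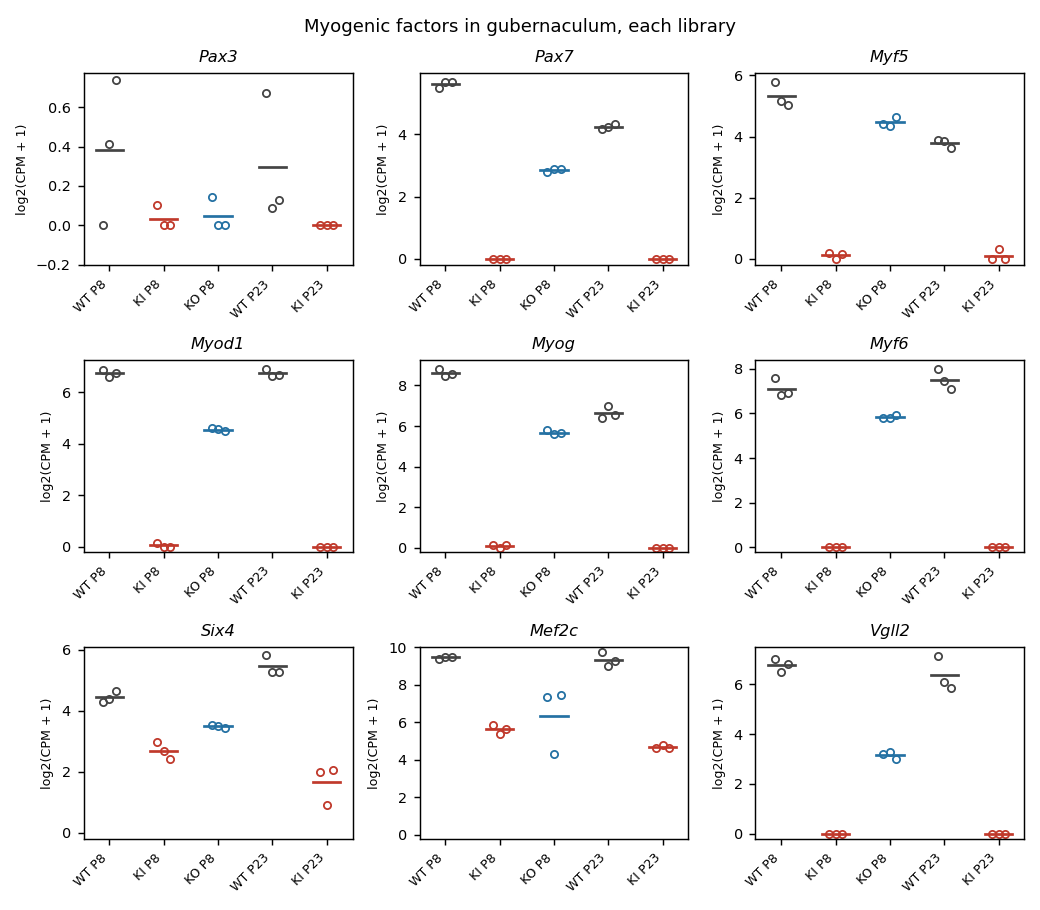
Level of each of the 9 factors in every gubernaculum library, as log2(CPM + 1) on the vertical axis with the 5 groups along the horizontal axis; points are libraries (n = 3 per group). INSL3-KI libraries sit at or near 0 for Pax7, Myf5, Myod1, Myog, Myf6 and Vgll2 at both ages, P8 INSL3-KO lies between P8 WT and P8 INSL3-KI for these 6 genes, and Six4 and Mef2c keep signal in INSL3-KI.

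The first comparison asks whether the factors differ between INSL3-KI and WT gubernaculum at P8. All 8 members that could be tested were lower in INSL3-KI, where 9.70% of 15500 genes tested were called lower and 14.4% higher (a call is an adjusted p below 0.01 and at least a 2-fold change). The filter kept Pax7, Myf5, Myod1, Myog, Myf6 and Vgll2 through WT alone, so they could not be called higher. Six4 and Mef2c had enough counts in both groups, and Pax3 did not pass the filter. The log2 fold change of Myog was -12.46 (SE 0.33, edgeR adjusted p = 1.4e-07). Here SE is a derived standard error, the absolute log2 fold change divided by the square root of the edgeR F statistic. It does not measure precision for Myog, Myod1 and Myf5, whose INSL3-KI counts are near 0. Without 1 library Myog ranged from -12.99 to -11.92. Myod1 was at -11.32 (SE 0.39, adjusted p = 4.1e-07). Without 1 library it ranged from -14.75 to -10.79, a range that its SE does not cover. Myf5 was at -8.69 (SE 0.48, edgeR adjusted p = 3.5e-06). Vgll2 was at least 1285-fold lower and Myf6 at least 1653-fold lower. The differences were smaller for the 2 genes with signal in INSL3-KI, Mef2c at -3.81 (SE 0.14, adjusted p = 6.0e-07) and Six4 at -1.87 (SE 0.20, adjusted p = 1.3e-04). With undetected genes set at their bounds the median of the 8 was -9.74, against 0.02 over all genes tested.

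Other muscle lists were counted in the same comparison. All 22 fusion and early differentiation targets were lower, with a median of -9.90 (-9.82 with the undetected gene at its bound). Embryonic myosin Myh3 fell from a mean of 3893 CPM in WT to 0.262 CPM (log2 fold change -13.76, SE 0.73, edgeR adjusted p = 2.8e-06), and the acetylcholine receptor subunit Chrng from 78.4 CPM to 0 (at least 895-fold). Of 22 mature fibre genes 20 were lower, among them Actn2, the Z-disc actinin (-11.23), and Csrp3, a muscle LIM protein (at least 4594-fold). Of 18 satellite cell genes 10 were lower and 8 were not called, among the lower ones Cdh15, the cadherin of satellite cells and myoblasts (-8.45), and Calcr, a receptor of quiescent satellite cells (at least 299-fold).

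The 38 upstream and partner factors were divided. In P8 INSL3-KI 17 were lower, 2 were higher and 19 were not called (median -0.76). Among the lower genes were Six2 (at least 98.6-fold) and Smyd1, a muscle methyltransferase (-8.53). The 2 higher genes were Tcf21, a bHLH factor of head muscle precursors that is also expressed in fibroblasts (log2 fold change 6.87, SE 0.50, edgeR adjusted p = 1.5e-05), and Six5 (1.15). Of 22 inhibitors of the myogenic factors 6 were higher, 4 were lower and 12 were not called (median 0.41). Id2, which sequesters the E proteins that pair with myogenic bHLH factors, rose from 12.7 to 407 CPM (edgeR adjusted p = 6.0e-07), Id4 rose by 4.16 and Id3 by 1.95. Among the lower inhibitors were Mstn, the secreted growth inhibitor myostatin that muscle itself expresses (at least 1182-fold), Hdac9 (-1.69) and Bhlhe40 (-1.58).

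Markers of some other cell types were higher where the myogenic factors were lower. In P8 INSL3-KI, 6 of 8 smooth muscle genes, 8 of 8 adipocyte genes and 8 of 8 duct epithelium genes were higher. The summed smooth muscle level was 1529 to 1833 CPM in WT and 14916 to 18928 CPM in INSL3-KI, the summed adipocyte level 45.4 to 68.8 and 428 to 606 CPM, and the summed duct epithelium level 43.5 to 133 and 1357 to 1635 CPM. Lep and Retn were undetected in WT, and no adipocyte or duct marker was undetected in INSL3-KI. Other lists had few calls, with 3 fibroblast genes and 2 macrophage and B cell genes lower and 2 endothelium genes higher of 8 each, and the 7 Schwann cell and melanocyte genes tested were not called. The summed fibroblast level was 43722 to 46769 CPM in WT and 17539 to 26026 CPM in INSL3-KI. Of 9 testis markers tested 3 were lower and 1 higher, and of the 8 gubernaculum markers 5 were higher and 1, Rxfp2, was lower. The part of these differences in the muscle result was not tested.

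P8 INSL3-KO was compared with the same WT libraries. In this comparison 6 of the 8 tested members were called lower and none higher, where 15.2% of 15609 genes were called lower and 15.5% higher. The log2 fold change was -3.77 for Vgll2 (SE 0.16, edgeR adjusted p = 2.8e-06), -2.97 for Myog (0.11, adjusted p = 2.0e-06), -2.95 for Pax7 (0.10, adjusted p = 1.4e-06) and -2.24 for Myod1 (0.09, adjusted p = 2.6e-06). Myf6 fell by 1.33 (0.20, adjusted p = 7.7e-04). Six4 fell by 1.03 (0.13, adjusted p = 3.4e-04), close to the 2-fold limit, and was no longer called when WT replicate 3 (-0.90) or INSL3-KO replicate 3 (-0.99) was left out. Myf5 was at -0.93 (SE 0.20, adjusted p = 0.0054), short of the fold limit, and passed it without WT replicate 3 (-1.06) or INSL3-KO replicate 3 (-1.02). Mef2c was at -2.59 (SE 0.71, adjusted p = 0.014) with all libraries and was called without INSL3-KO replicate 2 (-2.08, adjusted p = 6.3e-05). In all 8 genes no INSL3-KO library reached the WT range.

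The muscle lists were lower in INSL3-KO as well. All 22 fusion and early differentiation targets were lower (median -2.58), 19 of 22 mature fibre genes (median -2.28) and 11 of 18 satellite cell genes (median -1.38), and none of these was higher, with a median of 0.03 over all genes. Myh3 was at 69.9 CPM against 3699 CPM in WT, and Cdh15 at 14.5 CPM against 179 CPM. Of the upstream and partner factors 21 were lower, led by Eya4, a cofactor of Six4 and its relatives (-3.91), Pitx3 (-3.70) and Barx2 (-3.37), and 3 were higher, Tcf21 (6.60), Meox2 (1.62) and Dach1 (1.48). Of the inhibitors 6 were higher, among them Id2 (5.03), Id4 (2.60) and Id3 (1.91), and Hdac4 was lower (-1.03). Markers of other cells moved here too. All 8 adipocyte genes and all 8 duct genes were higher, as were 5 of 8 smooth muscle genes, and the summed levels were 862 to 907, 712 to 752 and 6851 to 7253 CPM, against the WT ranges given above. Their part in the result was not tested. Endothelium had 2 genes higher, fibroblast 2 lower and 1 higher, and macrophage and B cell none of 8 called. Of the Schwann cell and melanocyte genes 1 of 8 tested was lower, of the testis genes 3 of 11 were lower and 1 was higher, and of the gubernaculum genes 4 of 8 were higher.

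The direct comparison of the 2 mutants at P8 shares the INSL3-KI and INSL3-KO libraries with the comparisons above. INSL3-KI was lower than INSL3-KO for 6 of 8 members, with 10.5% of 15642 genes called lower and 11.9% higher. The log2 fold change of Myog was -9.54 (SE 0.34, edgeR adjusted p = 3.5e-06), that of Myod1 -9.13 (0.53, adjusted p = 1.9e-05) and that of Myf5 -7.80 (0.49, adjusted p = 2.3e-05). Pax7 was at least 75.1-fold lower, Vgll2 at least 96.6-fold lower and Myf6 at least 672-fold lower. The filter kept these 6 through INSL3-KO alone, so they could not be called higher in INSL3-KI. Six4 was at -0.88 (SE 0.19, adjusted p = 0.0051), short of the 2-fold limit, and was called without INSL3-KI replicate 1 (-1.06). Mef2c was at -1.26 (SE 0.69, adjusted p = 0.15) with overlapping groups, and was called without INSL3-KO replicate 2 (-1.77, adjusted p = 4.0e-04). Of the fusion targets 21 of 22 and of the mature fibre genes 21 of 22 were lower in INSL3-KI, while only 5 of 18 satellite cell genes were lower and 2 were higher. The smooth muscle list had 6 of 8 genes higher in INSL3-KI, the duct epithelium list 4 of 8 higher and the adipocyte list 5 of 8 lower. Of 37 upstream and partner factors tested 8 were lower and 5 higher, and of 22 inhibitors 4 were lower and 3 higher.

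At P23, 6 of the 8 tested members were lower in INSL3-KI than in WT and none was higher, where 2.35% of 15082 genes were called lower and 0.212% higher. Myf6 was at least 2314-fold lower, Myod1 at least 1305-fold, Myog at least 1242-fold and Vgll2 at least 1098-fold (edgeR adjusted p between 0.0013 and 0.0058). Mef2c was at -4.73 on the log2 scale (SE 0.29, adjusted p = 0.0015). Myf5 (-7.34, SE 1.41, adjusted p = 0.027) and Six4 (-4.22, SE 0.57, adjusted p = 0.011) were not called with all libraries, and both were called without INSL3-KI replicate 2 (-11.80, adjusted p = 0.0027, and -3.89, adjusted p = 0.003). The count of 6 fell to 2 without WT replicate 1, 1 without WT replicate 2 and 2 without WT replicate 3, since the adjusted p then rose above 0.01. Over all genes the lower calls fell too, from 355 of 15082 to 108 of 15480, 19 of 15467 and 77 of 15470. Without INSL3-KI replicate 1, Mef2c (edgeR adjusted p = 0.011) and Vgll2 (adjusted p = 0.02) lost their calls, and 76 of 15364 genes were lower. The counts of Pax7, Myod1, Myog, Myf6 and Vgll2 are 0 in all 3 INSL3-KI libraries at this age. The filter kept these genes and Myf5 through WT alone, so they could not be called higher.

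The other muscle genes were counted at P23 as well. Of the fusion targets 16 of 22 were lower and of the mature fibre genes 19 of 22, with medians of -8.63 and -12.69 with undetected genes at their bounds and 0.11 over all genes. Of the satellite cell genes 2 of 18 were called, Calcr (at least 53-fold) and Cdh15 (-9.11), both lower. These 3 counts were 19, 21 and 3 without INSL3-KI replicate 2, an alternative chosen after seeing the data, and the added satellite cell gene was the growth factor receptor gene Fgfr4. They fell to 5, 11 and 0 without WT replicate 1, to 1, 1 and 0 without WT replicate 2, to 6, 8 and 0 without WT replicate 3 and to 6, 11 and 0 without INSL3-KI replicate 1. Over all genes 355 of 15082 were lower with all libraries and 499 of 15437 without INSL3-KI replicate 2. In the other fits, in the same order, 108, 19, 77 and 76 genes were lower. Of 37 upstream and partner factors tested 3 were lower, among them Smyd1 (-9.34) and Msc (-3.10), and of 22 inhibitors Mstn alone was lower. Without INSL3-KI replicate 2, 9 of 38 upstream and partner factors were lower and 1 was higher, Eya2, which is named here after its value was seen. The summed mature fibre level was 55812 to 109579 CPM in WT and 12.8 to 163 CPM in INSL3-KI.

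Markers of other cell types stood high in some P23 INSL3-KI libraries. The summed smooth muscle level was 1694, 1906 and 4652 CPM in WT and 13903, 1924 and 12421 CPM in INSL3-KI. The summed duct epithelium level was 143, 206 and 369.6 CPM in WT and 1627, 9.46 and 2284 CPM in INSL3-KI, so both lists were high in replicates 1 and 3 only. The summed adipocyte level was 344, 147 and 279 CPM in WT and 4174, 8675 and 324 CPM in INSL3-KI, high in replicates 1 and 2. With all libraries no smooth muscle, adipocyte, duct, fibroblast, endothelium, macrophage and B cell, testis or gubernaculum marker was called by edgeR, while 5063 of all genes had an unadjusted p below 0.05. Without INSL3-KI replicate 2, the duct genes Krt8 and Emx2 were called higher and Rxfp2 was called lower, and without replicate 3 the adipocyte genes Adipoq and Pparg were called higher. Over all genes 139 of 15437 were called higher in the first of these fits and 128 of 15322 in the second. No smooth muscle gene was called without any 1 library. The part of these cells in the muscle result was not tested.

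**Figure D2:**
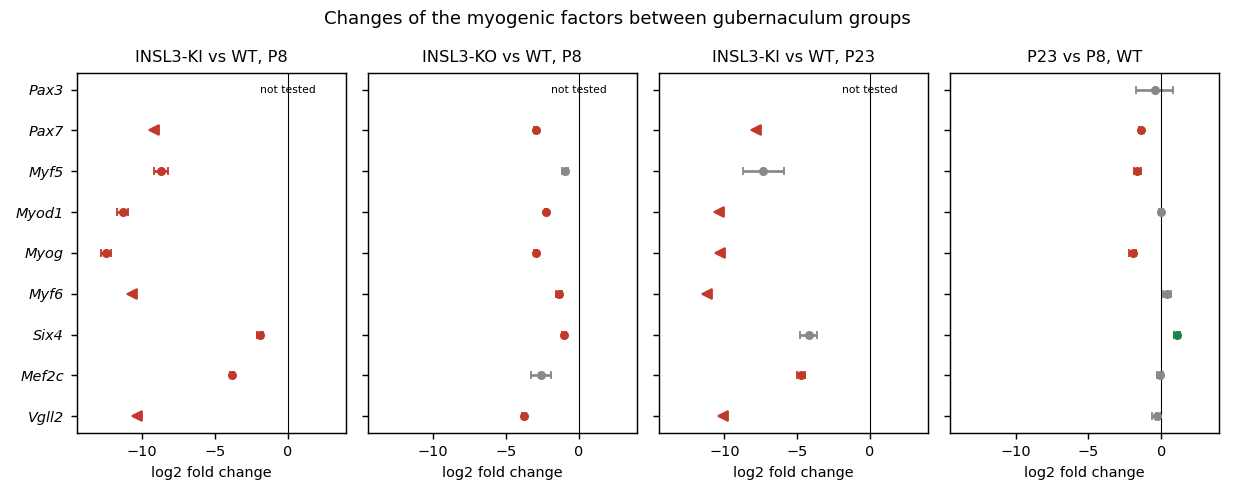
Log2 fold change on the horizontal axis for each of the 9 factors in 4 gubernaculum comparisons. Points are edgeR estimates with bars of 1 SE, derived from the edgeR F statistic. Triangles are lower bounds of the fold where a group was undetected, red marks a lower call, green a higher call and grey no call. All 8 tested factors are left of 0 in the 3 mutant panels, while in the WT age panel Pax7, Myf5 and Myog are lower and Six4 is higher at P23.

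Between P8 and P23 in WT 3 factors were lower with age and 1 was higher. Pax7 (-1.42, SE 0.13, edgeR adjusted p = 8.1e-04), Myf5 (-1.65, SE 0.23, adjusted p = 0.0026) and Myog (-1.97, SE 0.21, adjusted p = 0.0013) were called lower, where 4.34% of 14941 genes were lower and 6.17% higher. The Myf5 call was lost without P8 WT replicate 2 (-1.74, adjusted p = 0.011). Six4 was the only member called higher (1.07, SE 0.20, adjusted p = 0.0068), and this call was lost when any P8 replicate or P23 replicate 1 or 2 was left out. Myod1 (-0.01, adjusted p = 0.98), Myf6 (0.40, SE 0.28, adjusted p = 0.3), Mef2c (-0.10, adjusted p = 0.73) and Vgll2 (-0.31, adjusted p = 0.48) were not called. The lists moved apart. Of the satellite cell genes 7 of 18 were lower and 1 was higher, among the lower ones Tenm4 (-4.05), Peg3 (-2.83) and Calcr (-2.56). Of the fusion and early targets 9 of 22 were lower, led by Myh3 (-4.38), Chrng (-3.66) and Myl4 (-3.55), and 2 were higher, the creatine kinase Ckm (1.61) and the intermediate filament Des (1.15). Of the mature fibre genes 11 of 22 were higher and none lower, led by Pvalb (7.56) and the fast myosins Myh4 (5.94) and Myh1 (4.56). Of the upstream factors 5 were lower, among them Msc (-2.23), Eya2 (-1.89) and Tead2 (-1.57), and Tbx1 was higher (2.04). Of the inhibitors Mstn (2.06) and Bhlhe41 (1.99) were higher. Of the markers of other cells, 3 smooth muscle, 2 duct and 1 adipocyte gene were higher.

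In INSL3-KI between P8 and P23 only Six4 (-1.25, SE 0.54, edgeR adjusted p = 0.27) and Mef2c (-0.98, SE 0.16, adjusted p = 0.13) had enough counts to be tested. Neither was called, and neither was any of the 15271 genes (0%), of which 3069 had an unadjusted p below 0.05. Without P23 INSL3-KI replicate 2 the values were -0.86 for Six4 (adjusted p = 0.15) and -1.03 for Mef2c (adjusted p = 0.066), and again no gene was called. The change of the INSL3-KI difference with age could be estimated for Myf5 (1.29, SE 1.44, adjusted p = 0.61), Six4 (-2.38, SE 0.57, adjusted p = 0.039) and Mef2c (-0.94, SE 0.27, adjusted p = 0.064), and none was called, where 0.194% of 16016 genes were called lower and 0.0874% higher. Six4 was called without P23 INSL3-KI replicate 2 (-1.95, adjusted p = 0.0088), and Myf5 then turned to -3.09 (adjusted p = 0.25).

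The difference between a factor and Myog within a library removes most of the library's scaling. The 1 added to each CPM leaves a part, and it alters the values of low genes such as Pax7 and Vgll2 in INSL3-KO. It holds the lengths of both genes, so it is read between groups and does not rank the genes. On the log2(CPM + 1) scale the difference of Myf5 from Myog was -3.03, -3.30 and -3.53 in P8 WT and -1.37, -1.28 and -0.99 in P8 INSL3-KO, a shift of 2.07. Six4 shifted by 1.98, Myf6 by 1.66 and Myod1 by 0.75 in the same direction, and Vgll2 by -0.67. The groups did not overlap for these 5 genes, each with the smallest p that 3 against 3 libraries allow (exact permutation test, two-sided, p = 0.1, and 0.12 adjusted over 32 tests), so the design cannot reach 0.05. The difference for Pax7 was 0.17, within the spread of the libraries (exact p = 0.6), and Mef2c differed by -0.17 (exact p = 1) with a wide INSL3-KO spread. Against the mean of the mature fibre genes, Myog itself was lower in P8 INSL3-KO than in P8 WT (-0.85, exact p = 0.1). On that reference Myf5 shifted by 1.23, Six4 by 1.14, Vgll2 by -1.51 and Pax7 by -0.67 (exact p = 0.1 each). Myod1 shifted by -0.09 (exact p = 0.9), Myf6 by 0.81 (exact p = 0.4) and Mef2c by -1.01 (exact p = 0.6). For Myod1 and Myf6 the groups then overlapped, so their separation was seen only with Myog as the reference.

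With age in WT the mean difference from Myog was higher at P23 for all 7 genes. The shifts were 2.99 for Six4, 2.37 for Myf6, 1.97 for Myod1, 1.84 for Mef2c, 1.57 for Vgll2 and 0.60 for Pax7 (exact permutation p = 0.1 each, the smallest possible), and 0.44 for Myf5 (exact p = 0.2). Against the mean of the 22 mature fibre genes, the same factors were lower at P23, by -4.18 for Myog, -3.74 for Myf5, -3.57 for Pax7 and -1.80 for Myf6 (exact p = 0.1 each).

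**Figure D3:**
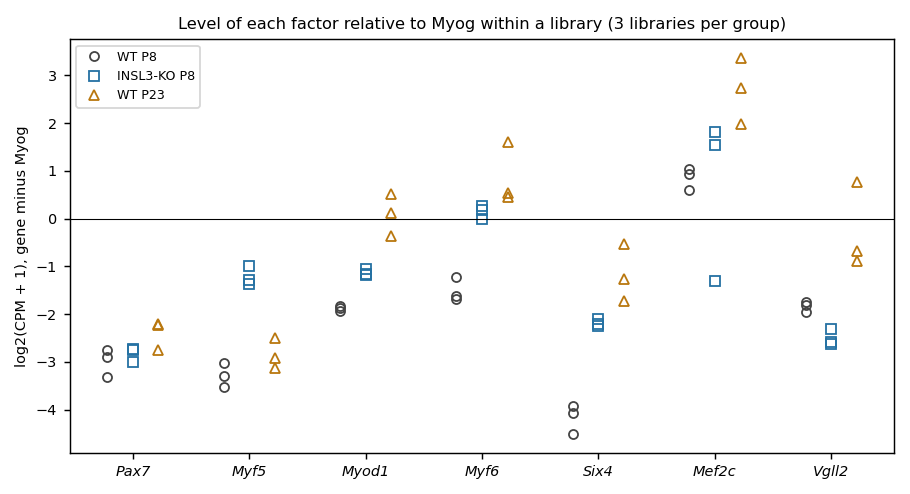
Difference between the level of 7 factors and Myog within each library, in log2(CPM + 1) on the vertical axis; circles are P8 WT, squares P8 INSL3-KO and triangles P23 WT (n = 3 each). The INSL3-KO squares lie above the P8 WT circles for Myf5, Myod1, Myf6 and Six4, below them for Vgll2 and among them for Pax7, and 1 Mef2c square is at -1.30.

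The Mef2c count varied together with the transcript length implied by the deposited values. The ratio of count to FPKM gives the length the authors' FPKM assumed for a gene in a library, and for Mef2c it was 5.76 to 5.82 kb in P8 WT gubernaculum, 4.87 to 5.04 kb in P8 INSL3-KI and 6.06 to 6.31 kb in P23 WT. In P8 INSL3-KO it was 6.34 and 6.49 kb in replicates 1 and 3 but 3.58 kb in replicate 2, the library with 844 counts. A like split occurred in testis, with 3.64, 3.69 and 5.47 kb beside 539, 505 and 1576 counts in the libraries labelled P8 INSL3-KO, and 3.71, 3.67 and 6.6 kb beside 534, 503 and 2832 counts in P23 INSL3-KO. The part of the assumed length in the Mef2c differences was not tested.

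**Figure D4:**
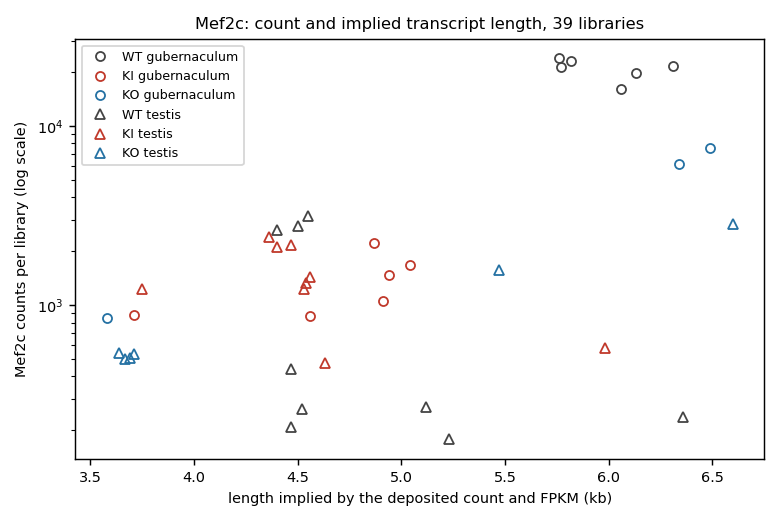
Mef2c counts per library on a log vertical axis against the length implied by the deposited count and FPKM in kb, for all 39 libraries; circles are gubernaculum, triangles testis and colours the genotype. The INSL3-KO libraries fall in 2 sets, 5 at 3.58 to 3.71 kb with 844 counts or fewer and the others at 5.47 kb or more with 1576 counts or more.

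For each factor the 3 genes with the most similar profile over the 15 gubernaculum libraries were found among 15667 genes, as the smallest root mean square difference between centred log2(CPM + 1) values. These distances describe the same libraries and share their scaling, and they are not tested. Nearest to Pax7 were the acetylcholine receptor subunit Chrnd (0.26) and its clustering protein Rapsn (0.35), with Pitx1 (0.41), where the spread of Pax7 itself was 2.25. Nearest to Myod1 (spread 3.04) were Cav3 (0.28), Trim55 (0.30) and Mlip (0.30). Myog (spread 3.53) was farther from its neighbours, with Chrna1 and Cavin4 at 0.59 and Tceal7 at 0.62.

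Myf6 (spread 3.39) was nearest to sarcolipin, Sln (0.36), the muscle cytochrome oxidase subunit Cox6a2 (0.38) and Asb5 (0.40). Vgll2 (spread 2.95) was nearest to Klhl40 (0.33), Dusp27 (0.36) and Cacng6 (0.43), and Six4 (spread 1.36) to Cacna2d1 (0.21), Tcea3 (0.28) and Clip4 (0.30). Myf5 (spread 2.22) had Igsf1 (0.56), Angptl1 (0.57) and Itm2a (0.61), and Mef2c (spread 2.07) Lmcd1 (0.73), Zfp385c (0.75) and Ache (0.75). Pax3, with a spread of 0.24, was nearest to Astl, Otud4 and Wdr26 at 0.15, values that reflect its near-zero level.

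The gubernaculum and the testis of the same age were compared in WT to show where the factors are expressed. Of the 9 members 8 were higher in P8 gubernaculum, where 14.1% of 15624 genes were higher and 14.3% lower. Myog was higher by 12.07 (SE 0.53, edgeR adjusted p = 3.9e-06), Vgll2 by 10.78, Myod1 by 10.73 and Pax7 by 6.27. Myf6 was at least 2128-fold and Myf5 at least 608-fold higher. The filter kept Myf5, Myod1, Myog, Myf6 and Vgll2 through the gubernaculum alone, so they could not be called lower there. Mef2c and Six4, which are expressed in many cell types, differed by 3.50 and 1.92, and Pax3 was not called (1.96, SE 1.60, adjusted p = 0.32). All 22 fusion targets, all 22 mature fibre genes and 14 of 18 satellite cell genes were higher in the gubernaculum. All 12 testis markers were lower in the gubernaculum, with 32.5 to 45.1 CPM summed against 1713 to 2119 CPM in testis.

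In testis Myf5 was undetected in all 8 groups, and Myod1, Myog and Vgll2 stayed at or below 7, 17 and 11 counts in any library, so no difference was detectable at this depth. At P8 no member was called in INSL3-KI (6.29% of 15702 genes called in either direction) or in the libraries labelled INSL3-KO (13.8% of 15723). Mef2c was at 65.3, 71 and 64.6 CPM in P8 WT, 46.3, 33.8 and 25.2 CPM in INSL3-KI and 10.5, 11.2 and 34.5 CPM in the libraries labelled INSL3-KO. No mutant library reached the WT range. The log2 fold changes were -0.87 (SE 0.21, edgeR adjusted p = 0.022) and -1.81 (SE 0.44, adjusted p = 0.011). The second was called without WT replicate 1 (-1.80, adjusted p = 0.0083) or without the library labelled INSL3-KO replicate 3 (-2.60, adjusted p = 1.2e-04).

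Later in testis the direction for Mef2c was the opposite. At P40 it measured 9.16, 10.4 and 14.8 CPM in WT and 37.4, 59.9 and 53.3 CPM in INSL3-KI, a called increase of 2.19 (SE 0.28, edgeR adjusted p = 8.2e-04) where 47.7% of 16677 genes were called in either direction. At P23 it measured 10.8, 7.26 and 9.84 CPM in WT, 15.7, 14.1 and 34 CPM in INSL3-KI and 14.2, 11.6 and 68.5 CPM in INSL3-KO. The P23 values of 1.21 (adjusted p = 0.035) and 1.81 (adjusted p = 0.017) were not called. Without INSL3-KO replicate 1 or 2 the P23 INSL3-KO value was called (2.15, adjusted p = 0.0062, and 2.20, adjusted p = 0.0032). The testis markers moved at P40 as well. Sox9 (2.80), Amh (3.55), Dhh (1.90), Gata1 (2.30), Star (2.07), Hsd3b1 (1.12) and Zbtb16 (2.42) were called higher in INSL3-KI. Cyp11a1 (0.54), Cyp17a1 (-0.28), Dazl (0.34), Ddx4 (-1.97) and Sycp3 (-0.82) were not called. The part of these markers in the testis results for the factors was not tested.

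Pax3 was low in testis, and lower in the mutants at P23 and P40. At P8 its raw counts were 11, 0 and 0 in WT, 4, 6 and 0 in INSL3-KI and 0 in all 3 libraries labelled INSL3-KO, so the groups overlapped and it did not pass the filter for a test. It gave 0.887, 1.39 and 1.04 CPM in P23 WT and 0.163, 0.267 and 0.138 CPM in P23 INSL3-KI, with raw counts of 22 to 34 and 5 to 9. The P23 log2 fold change was -2.51 (SE 0.43, edgeR adjusted p = 0.005; 20.6% of 16603 genes were called), and the call was lost without any 1 WT replicate or INSL3-KI replicate 1 (adjusted p between 0.022 and 0.027). In P23 INSL3-KO it was at -4.14 (SE 0.86, adjusted p = 0.0011; 64.4% of 16732 genes were called). At P40 it gave 1.45, 1.5 and 1.17 CPM in WT and 0.183, 0.1 and 0 CPM in INSL3-KI (-3.78, SE 0.75, adjusted p = 0.0044), a call lost without any 1 WT replicate or INSL3-KI replicate 2 (adjusted p between 0.016 and 0.02). The filter kept Pax3 through WT alone in these comparisons, so it could not be called higher.

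Myf6, low in testis, gave 1.09, 1.63 and 1.04 CPM in P23 WT, 1.49, 1.51 and 0.551 CPM in INSL3-KI and 0 counts in all 3 INSL3-KO libraries, where it was at least 16.3-fold lower (edgeR adjusted p = 4.7e-05). INSL3-KI did not differ beyond its spread (-0.07, SE 0.46). At P40 INSL3-KI had 15, 0 and 0 counts against 15, 27 and 40 in WT (-2.94, adjusted p = 0.058), and Myf6 was called without INSL3-KI replicate 1 (-8.00, adjusted p = 6.8e-04). In P23 INSL3-KO and P40 INSL3-KI the filter kept Myf6 through WT alone, so it could not be called higher. Six4 was called only in P23 INSL3-KO (-1.19, SE 0.27, adjusted p = 0.0022), a call lost without WT replicate 2 or 3, and stood at -1.16 (adjusted p = 0.037) in P23 INSL3-KI, where it was called without INSL3-KI replicate 3 (-1.43, adjusted p = 0.0081).

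Pax7 in testis was at 0.505 to 1.14 CPM in the P8 libraries and then undetected in WT, with at most 2 counts per library at P23 and P40. It stayed detectable in the older mutants, of which P23 INSL3-KI (5, 12 and 23 counts) did not pass the filter. INSL3-KO had 12, 24 and 18 counts at P23 and INSL3-KI 14, 25 and 18 counts at P40, at least 3.71-fold and at least 4.26-fold above the floor in WT (edgeR adjusted p = 0.0044 and 0.0075). The first call was lost without any 1 WT replicate or INSL3-KO replicate 2 or 3, and the second without WT replicate 2 or 3 or INSL3-KI replicate 2 or 3 (adjusted p between 0.013 and 0.03). The filter kept Pax7 through the mutants alone, so it could not be called lower in either comparison. Over all genes 64.4% of 16732 were called in P23 INSL3-KO and 47.7% of 16677 in P40 INSL3-KI, in either direction.

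**Figure D5:**
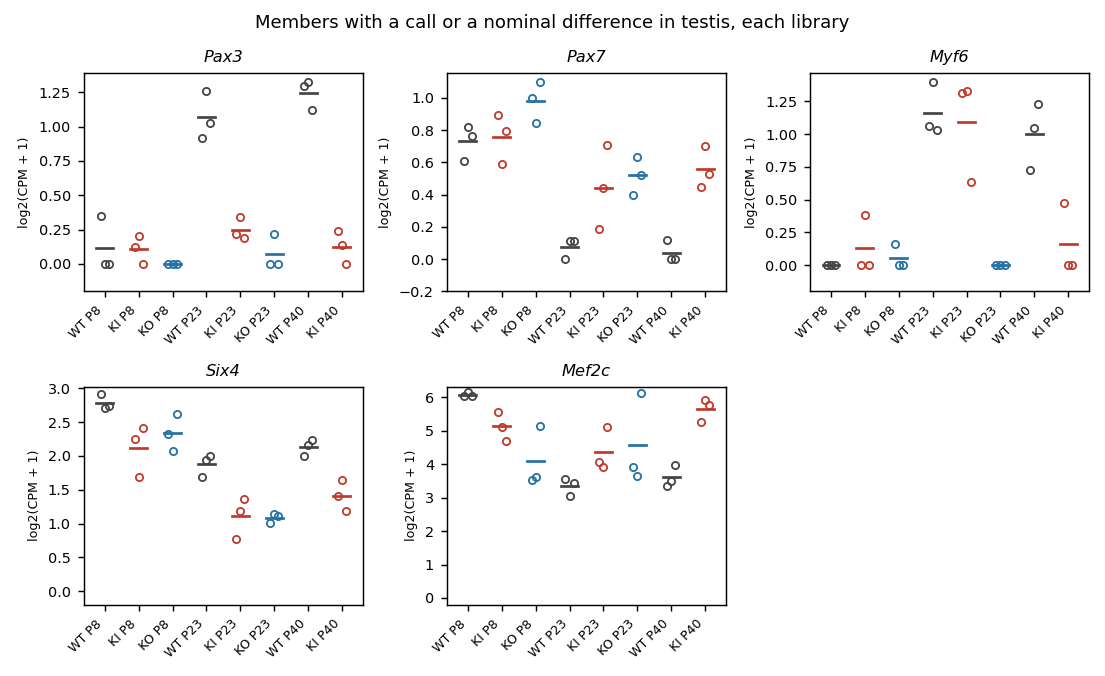
Levels of Pax3, Pax7, Myf6, Six4 and Mef2c in every testis library, as log2(CPM + 1) on the vertical axis with the 8 groups along the horizontal axis; points are libraries (n = 3 per group). Mef2c is highest in P8 WT and higher in P40 INSL3-KI (37.4 to 59.9 CPM) than in P40 WT (9.16 to 14.8 CPM), and Pax3 and Myf6 stay below 2 CPM throughout.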

How the data were processed

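RNA-seq libraries of gubernaculum and testis (39 libraries, 3 biological replicates per group) were analysed from the tables the authors deposited. RNA was extracted with TRIzol and sequenced as paired-end mRNA libraries, and the reads were aligned with HISAT2 to GRCm38 according to the submitters' notes and the study's methods; the counting program and annotation are not given in the sources used here. The deposited values are raw read counts per gene, and FPKM per gene computed by the authors. The counts of the first table (27 libraries) and the second (12 libraries) were joined on 21561 shared Ensembl genes, and the FPKM values were used for levels between genes and for the alternative fits.

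Genes were tested with edgeR 4.0.16 in R 4.3.3 (quasi-likelihood test, TMM, filterByExpr keeping genes from a count of 10 and a total of 15), each comparison fitted on its own groups, with Benjamini-Hochberg adjustment over all genes tested and the study's thresholds (adjusted p below 0.01, at least 2-fold). The study used DESeq2, which was run here as an alternative (1.42.0). A group was called undetected where every library had at most 3 counts, and the fold is then a bound against 3 counts per library. Each SE was derived as the absolute log2 fold change divided by the square root of the quasi-likelihood F statistic, and is not an edgeR output. Where a group had counts near 0, the SE does not measure the precision of the fold. Intervals and floors cover counting error only. Within-library differences were tested by exact permutation over libraries. The 9 factors and the gene lists were chosen with earlier results of these data known. All 9 members are named. From each other list, up to 3 called genes with the largest change in each direction are named for each gubernaculum comparison, among genes with a mean of at least 1 CPM. Some genes that this rule names are not reported here. Alternatives were DESeq2, no filter on low counts, library size in place of TMM, 1 fit over all groups of a tissue, a replicate block, limma 3.58.1 on log2(FPKM + 1) and log2(FPKM + 0.1), an adjusted p below 0.05 with no minimum fold, and leaving out each replicate. The fitting code was tested on simulated counts. Sequences come from RefSeq (GRCm38.p6).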

Additional observations from a re-analysis of the deposited data

Results flagged for a closer look

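Some factors had log2 fold changes of opposite sign in 2 settings of the same contrast, although most of these values were not called. Six4 in gubernaculum was called higher at P23 than at P8 in WT (log2 fold change 1.07, edgeR adjusted p = 0.0068), while the INSL3-KI value of -1.25 was not called (adjusted p = 0.27; -0.86 without P23 INSL3-KI replicate 2). The difference between these changes was -2.38 (SE 0.57, edgeR adjusted p = 0.039), which did not pass the threshold of 0.01, and -1.95 (adjusted p = 0.0088) without that replicate.

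Mef2c in testis was below WT in every P8 INSL3-KI library (-0.87, edgeR adjusted p = 0.022, not called) and above WT in every P23 (1.21, adjusted p = 0.035, not called) and P40 (2.19, adjusted p = 8.2e-04, called) INSL3-KI library. The libraries labelled P8 INSL3-KO, where the mouse Insl3 row held 613 to 906 counts, gave -1.81 (adjusted p = 0.011) and those of P23 INSL3-KO 1.81 (adjusted p = 0.017), neither called. Mef2c in P23 INSL3-KI was at -4.73 in gubernaculum, a call, and at 1.21 in testis. Pax7 at P8 was at -2.95 in INSL3-KO gubernaculum, a call, and at 0.58 (adjusted p = 0.2, not called) in the testis libraries labelled INSL3-KO, the latter from 36 to 52 counts per library. The differences for Mef2c and Pax7 were not tested.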

How the results depend on the processing

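In P8 INSL3-KI against WT, 111 of 112 alternative values of the tested factors kept their direction and their side of the threshold, and the exception was Six4 under limma on log2(FPKM + 1) (-0.95). The numbers were 96 of 112 in P8 INSL3-KO, 109 of 112 between the mutants and 78 of 112 in P23 INSL3-KI. The cause of the changes below was not tested. In P23 INSL3-KI gubernaculum the number of factors called lower (6) ranged from 1 to 8 when 1 replicate was left out. The lower calls over all genes (355 with all libraries) then ranged from 19 to 499. The WT age comparison had 1 factor called higher and 0 with library size only, with 1 fit over all groups, with a replicate block, or with limma at either pseudocount, and 0 to 1 without 1 replicate. For the change of the INSL3-KI difference with age (0 lower, 0 higher), 1 was lower with DESeq2, with limma on log2(FPKM + 1) or at an adjusted p below 0.05, 0 to 1 without 1 replicate, and 1 was higher with limma on log2(FPKM + 1).

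In testis, the called factors numbered 1 in place of 0 in P8 INSL3-KI at an adjusted p below 0.05. In the libraries labelled P8 INSL3-KO 1 in place of 0 was called with DESeq2, no filter, a replicate block, limma at either pseudocount or an adjusted p below 0.05, and 0 to 1 without 1 replicate. P23 INSL3-KI (1 called) had 3 with DESeq2 or an adjusted p below 0.05, 2 with 1 fit over all groups, 0 with a block or limma and 0 to 2 without 1 replicate. P23 INSL3-KO (4 called) had 2 with a block, 1 with limma on log2(FPKM + 1) and 2 to 5 without 1 replicate. P40 INSL3-KI (3 called) had 1 with a block or limma on log2(FPKM + 1) and 1 to 4 without 1 replicate. Pax3, Pax7, Myf6, Six4 and Mef2c were the factors tested in P23 INSL3-KO and P40 INSL3-KI. In the main fits 6.29% of all genes were called in P8 INSL3-KI and 13.8% in the libraries labelled P8 INSL3-KO. The share was 20.6% in P23 INSL3-KI, 64.4% in P23 INSL3-KO and 47.7% in P40 INSL3-KI.

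The sign changed in the following results. In the WT age comparison Myod1 was 0.00 with 1 fit over all groups and -0.09 to 0.07 without 1 replicate, Mef2c -0.33 to 0.05 and Pax3 -2.04 to 0.53. The Myf5 difference with age in INSL3-KI ranged from -3.09 to 1.94. In testis Pax7 in P8 INSL3-KI ranged from -0.04 to 0.34 without 1 replicate, and Myf6 in P23 INSL3-KI was 0.38 with library size only, 0.16 and 0.31 with limma at pseudocounts 1 and 0.1, and -0.29 to 0.27 without 1 replicate.

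The replicate numbers did not pair the samples: correlations of same-numbered libraries ranged from -0.24 to 0.46 and no comparison had all 3 above 0.1. With a replicate block the factors called lower in P23 INSL3-KI gubernaculum fell from 6 to 0, as did the calls over all genes (from 355 lower and 32 higher without the block). The direction of all 6 stayed the same. With 3 replicates and counts near the floor, differences in Pax3 in gubernaculum and in Myf5, Myod1, Myog and Vgll2 in testis were below what this depth can show.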
